A study of Vitis vinifera with 36 samples.

Results

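Winter-season berries of 2 table grapes at E-L 36 were compared gene by gene: the black-berried, muscat-flavoured ‘Muscat Hamburg’ and the white-berried ‘Victoria’. The comparison rested on 6 RNA-seq libraries of the 36 in the series, 3 of each variety, which were all the libraries labelled as winter crop and E-L 36. E-L 36 is the berry stage between E-L 35, the onset of ripening (veraison), and E-L 38, harvest ripeness. Both varieties were grown under a double cropping system that gives a summer and a winter crop from the same vineyard. Each replicate was RNA of a pool of de-seeded berries with skin and flesh together, from vines grafted on SO4 rootstock under a rain shelter. All libraries came from one vintage, and the study dates the winter stages of both varieties alike. Each variety is 1 cultivar, so that variety cannot be told apart from the vines that carried it or from how well the 50-bp reads of its alleles matched the reference genome. A lower level in a whole-berry sample can be fewer cells of a kind or less RNA in each of them, and these cannot be told apart either.

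Berry colour comes from anthocyanins, which plants make from phenylalanine. The phenylpropanoid enzymes PAL, C4H and 4CL deliver an activated acid, chalcone synthase (CHS), chalcone isomerase (CHI) and flavanone 3-hydroxylase (F3H) build the flavonoid skeleton, and the hydroxylases F3'H and F3'5'H decorate its B-ring. From there flavonol synthase (FLS) leads to flavonols, LAR and ANR lead to flavanols, and DFR, LDOX and UFGT lead to anthocyanins. In grape skin the regulators MYBA1 and MYBA2 are known as the switch for UFGT, and MYBF1 and the light-signalling factors HY5 and HYH are known for the flavonol branch. The 64 flavonoid genes described here are those the study itself followed, so their directions are not independent evidence about the pathway. The study states that flavonoid biosynthesis genes were selected for differing between summer and winter berries, in these same data. Their shares of calls are therefore not on an equal footing with those of all genes.

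The 3 ‘Muscat Hamburg’ libraries held between 11207531 and 11528625 estimated counts, and the 3 ‘Victoria’ libraries between 9719261 and 11128820. Library 3 of ‘Muscat Hamburg’ stood apart from its 2 partners: counts differed by 28.3 and 27.9 times the counting noise (chi-square per degree of freedom over the genes), against 1.48 between libraries 1 and 2. Among the ‘Victoria’ libraries the value ran from 1.6 to 1.78, so that those 3 and the first 2 of ‘Muscat Hamburg’ lay close together, although above the counting noise. Over all 36 pairs of libraries within a group the median was 11.1. The 10 most abundant genes took 16.2% of the counts in library 3 of ‘Muscat Hamburg’, between 11.2% and 11.4% in the other two, and 13.5% to 13.7% in ‘Victoria’. The series gives such libraries as biological replicates, and they were kept as 3 a group. The counts of genes are also given without library 3 and with near-identical libraries averaged into 1. Unless another fit is named, p-values and SEs took their spread from all 36 libraries in 12 groups, and not from winter E-L 36 alone. A gene whose winter E-L 36 libraries lie close together can therefore still have a wide SE. The study drew the berries of each replicate at random from many vines, and does not say whether the replicates came from separate vines. P-values therefore measure only the spread between libraries within the groups fitted.

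At E-L 36 in winter 1651 genes were higher in ‘Muscat Hamburg’ and 1573 were higher in ‘Victoria’, of 19736 tested. These are 8.37% and 7.97% of the genes tested, where a call needs an adjusted p no higher than 0.05 together with a 2-fold difference (edgeR quasi-likelihood test over all 36 libraries, Benjamini-Hochberg adjustment). The median difference of all genes was 0.01 on the log2 scale, which the scaling sets close to 0. With limma on log2(FPKM + 1) the counts were 894 and 1056. Leaving out library 3 of ‘Muscat Hamburg’ gave 1632 and 1523 genes. With near-identical libraries averaged, which left 2 libraries of ‘Muscat Hamburg’ and 1 of ‘Victoria’, 673 and 894 genes were called.

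**Figure D1:**
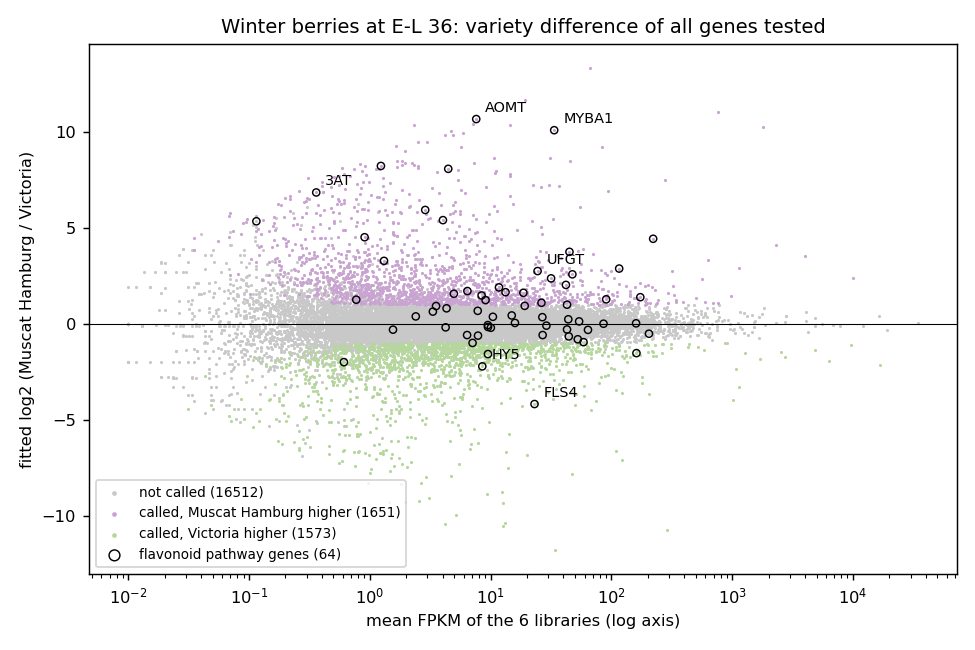
Fitted log2 ratio of ‘Muscat Hamburg’ to ‘Victoria’ (vertical axis) against the mean FPKM of the 6 winter E-L 36 libraries (horizontal log axis) for the 19736 genes tested. Purple dots are the 1651 genes called higher in ‘Muscat Hamburg’, green dots the 1573 called higher in ‘Victoria’, grey dots the genes not called, and rings the 64 flavonoid genes, of which MYBA1 and AOMT lie at the top and FLS4 at the bottom. Fitted ratios of genes with a variety near 0 depend on the model and are no measure of size.

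For 328 of the genes higher in ‘Muscat Hamburg’ none of the 3 ‘Victoria’ libraries held more than 3 counts, and for 200 of the genes higher in ‘Victoria’ the same held for ‘Muscat Hamburg’. Most of these genes were weakly expressed where they were present, with a median level in the higher variety of 1.08 and 1.25 FPKM (the count of a gene scaled to transcript length and to the size of the library). At 5 FPKM or more in the higher variety there were 44 and 21 of them. Of the 328 genes, 64 stayed at or under 3 counts in all 18 ‘Victoria’ libraries of the series, and 73 of the 200 did so in all 18 of ‘Muscat Hamburg’. The other called genes differed by a median fold of 3.13 towards ‘Muscat Hamburg’ (1323 genes) and 3.02 towards ‘Victoria’ (1373 genes), and 486 and 409 of them differed by 4-fold or more.

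Levels in FPKM did not overlap between the varieties for 4292 genes with ‘Muscat Hamburg’ on top (21.7% of those tested) and for 5758 with ‘Victoria’ on top (29.2%). The deposited FPKM do not carry the scaling of the fit. With limma on log2(FPKM + 1) the median log2 difference of all genes was -0.03, beside 0.01 in the fit. The larger number towards ‘Victoria’ is therefore no count of more genes being higher there. Among genes called higher in ‘Muscat Hamburg’ library 3 was the lowest of its group for 747 and the highest for 640, while libraries 1 and 2 were each the lowest for 452. The share of genes called was higher below 10 FPKM than above it. It was 13.5% towards ‘Muscat Hamburg’ and 9.18% towards ‘Victoria’ below 1 FPKM, 9.07% and 10.1% between 1 and 10 FPKM, and 5.01% and 4.92% between 10 and 100 FPKM. Among the 876 genes above 100 FPKM it was 7.31% and 6.85%. By the chromosome number carried in the gene identifiers, the share called in either direction ranged from 10.6% on chromosome 11 to 20.2% on chromosomes 10 and 16, and it was 21.9% for genes on no placed chromosome.

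No reference annotation used here gives a function to the gene identifiers outside the 64, so of the largest differences above the floor of 3 counts only 2 identifiers in each direction are named. VIT_205s0094g00330 stood at 1321, 1338 and 1887 FPKM in ‘Muscat Hamburg’ and at 0.84, 0.5 and 0.91 FPKM in ‘Victoria’, a log2 difference of 11.03 ± 0.67 (SE, adjusted p = 4.44e-13). VIT_205s0094g00350, close to it by number, stood at 3340, 3337 and 4044 FPKM against 3.01, 3.14 and 2.98 FPKM, a log2 difference of 10.25 ± 0.51 (adjusted p = 8.04e-15). In both genes every ‘Muscat Hamburg’ library was far above every ‘Victoria’ library. In the other direction VIT_209s0018g01490 stood at 0.14, 0.32 and 0.53 FPKM in ‘Muscat Hamburg’ and at 583, 578 and 575 FPKM in ‘Victoria’, and VIT_201s0011g05910 at 0.4, 0.2 and 0.58 FPKM against 103, 88.1 and 89.9 FPKM. Again the varieties lay far apart in every library, and the log2 differences were -10.74 ± 0.54 and -7.82 ± 0.47 (adjusted p = 1.02e-14 and 3.89e-13). All 4 genes were called in the same direction at the other winter stages and in summer at E-L 36. All 4 also carried estimated counts that are not whole numbers, so that part of their reads was shared with other genes by the authors' counting.

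Of the 64 flavonoid genes, all of which were tested, 24 (37.5%) were higher in ‘Muscat Hamburg’ and 5 (7.81%) were higher in ‘Victoria’, beside 8.37% and 7.97% of all genes. The median log2 difference of the 64 was 0.75 beside 0.01 for all genes. A further 9 passed the adjusted p but differed by less than 2-fold. Levels of the varieties did not overlap for 33 of the 64 genes with ‘Muscat Hamburg’ on top (51.6%, beside 21.7% of all genes) and for 16 with ‘Victoria’ on top (25%, beside 29.2% of all genes). In 20 of the 24 genes higher in ‘Muscat Hamburg’ its library 3 was the lowest of the 3, and still above all ‘Victoria’ libraries. Without that library 23 of the 24 calls and all 5 in the other direction held, and the one lost was ANR. With near-identical libraries averaged 13 of the 24 and 4 of the 5 held.

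**Figure D2:**
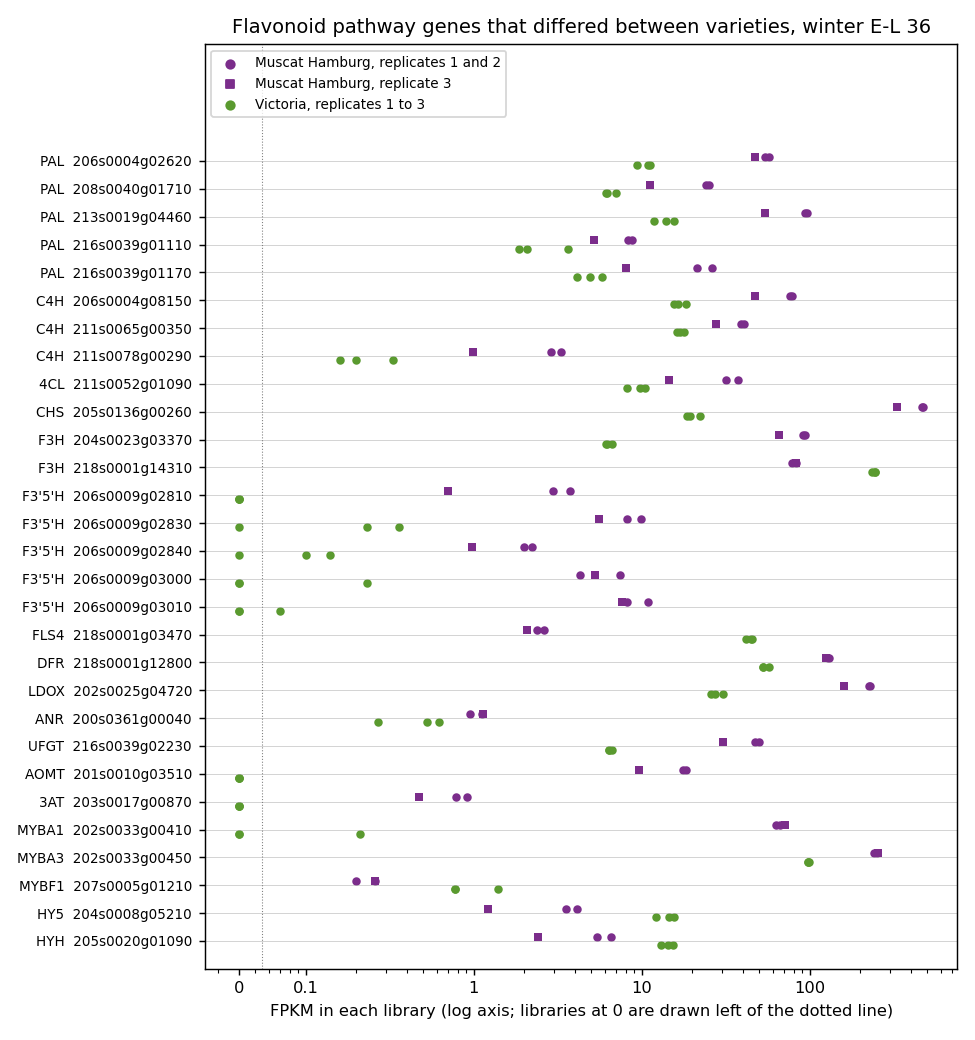
Level in each of the 6 winter E-L 36 libraries (horizontal log axis, FPKM, with libraries at 0 left of the dotted line) of the 29 flavonoid genes called different, one gene per line in pathway order. Purple marks are ‘Muscat Hamburg’ (circles for libraries 1 and 2, a square for library 3) and green circles ‘Victoria’. The colours do not overlap on any line, and the square is the leftmost purple mark for most genes.

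Among the genes of colour all 3 enzymes of the last steps and 2 of the 3 MYBA regulators were higher in ‘Muscat Hamburg’. Of all genes 8.37% were called in that direction. MYBA1 stood at 62.8, 66.9 and 71.6 FPKM in the ‘Muscat Hamburg’ libraries and at 0, 0.21 and 0 FPKM in the ‘Victoria’ libraries. That is at least 280-fold higher when ‘Victoria’ is set to 3 counts per library (adjusted p = 7.95e-13), and only 2 of the 18 ‘Victoria’ libraries of the series held more than 3 counts of it. MYBA2, its neighbour in the berry colour locus, was well expressed in both varieties: 162, 158 and 174 FPKM in ‘Muscat Hamburg’ and 242, 250 and 239 FPKM in ‘Victoria’. Its levels did not overlap, yet the difference of -0.51 ± 0.27 on the log2 scale did not pass (adjusted p = 0.153). MYBA3 was higher in ‘Muscat Hamburg’, at 242, 250 and 255 FPKM against 98.5, 97 and 97.7 FPKM (log2 difference 1.39 ± 0.35, adjusted p = 0.00268). Its call held in 15 of 16 alternative settings, all but that with near-identical libraries averaged. The 3 genes are close relatives with counts that are not whole in some libraries, so their shares of common reads are uncertain. Summed over them the level was 481 ± 18.1 FPKM in ‘Muscat Hamburg’ and 341 ± 5.56 FPKM in ‘Victoria’ (SD, n = 3), a ratio of 1.41.

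UFGT, which adds glucose to anthocyanidins, stood at 49.6, 47.5 and 30.4 FPKM in ‘Muscat Hamburg’ and at 6.35, 6.61 and 6.37 FPKM in ‘Victoria’. The lowest ‘Muscat Hamburg’ library, number 3, was still well above ‘Victoria’. The fitted difference was 6.71-fold (log2 2.75 ± 0.18, adjusted p = 2.93e-12). AOMT, which methylates anthocyanins, stood at 17.5, 18.4 and 9.61 FPKM in ‘Muscat Hamburg’ and had no count in any of the 3 ‘Victoria’ libraries, at least 60.7-fold higher. The acyltransferase 3AT was weakly expressed, at 0.78, 0.91 and 0.47 FPKM, and likewise had no count in ‘Victoria’, at least 4.23-fold higher. All 3 genes of this group were thus called (adjusted p = 5.42e-11 for AOMT and 3.15e-06 for 3AT). A count of 0 allows up to 3 counts a library, and this limit covers counting error only.

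F3'5'H makes the precursors of the blue delphinidin-type pigments. Of its 6 measured copies 5 were higher in ‘Muscat Hamburg’, beside 8.37% of all genes. Summed over the copies, the level was 30.4, 29.5 and 20.7 FPKM in ‘Muscat Hamburg’ and 0.17, 0.46 and 0.5 FPKM in ‘Victoria’. In ‘Victoria’ 5 of the copies were at or under 3 counts in every library, so the sum gives no fold. The copy VIT_206s0009g03010 stood at 10.9, 8.18 and 7.63 FPKM against 0.07, 0 and 0 FPKM, at least 39.7-fold higher (adjusted p = 1.19e-09). VIT_206s0009g02830 stood at 9.84, 8.17 and 5.57 FPKM against 0, 0.23 and 0.36 FPKM (log2 difference 5.4 ± 0.59, adjusted p = 3.24e-08). For VIT_206s0009g02810, VIT_206s0009g02840 and VIT_206s0009g03000 ‘Victoria’ was at or under 3 counts, and ‘Muscat Hamburg’ was at least 11.1-, 10.8- and 8.97-fold higher. The calls of VIT_206s0009g02810 and VIT_206s0009g02840 were lost with near-identical libraries averaged. Only VIT_206s0009g02970 was not called: it stood at 0.14, 0 and 0.55 FPKM in ‘Muscat Hamburg’ and had no count in ‘Victoria’. All 6 copies had counts that are not whole, so their shares of common reads are uncertain and the sum is safer than any single copy.

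Neither of the 2 F3'H genes, which make the cyanidin-type precursors, was called. Copy VIT_209s0002g01090 stood at 63.5, 62 and 44.7 FPKM in ‘Muscat Hamburg’ and 29.9, 29 and 28.4 FPKM in ‘Victoria’, without overlap. Its fitted fold of 1.99 lay just under the fold asked for (adjusted p = 0.00797), and it was called in 6 of 16 alternative settings, among them without library 3 of ‘Muscat Hamburg’ (log2 1.08). Copy VIT_203s0063g01690 stood at 31.7, 31.9 and 19.7 FPKM against 30.2, 29.1 and 30.9 FPKM, where library 3 of ‘Muscat Hamburg’ fell below ‘Victoria’ and the others did not.

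Among the 6 early genes 2 were higher in ‘Muscat Hamburg’, 1 was higher in ‘Victoria’ and 3 were not called. Of all genes 8.37% and 7.97% were called in these directions. Copies of one enzyme differed. CHS VIT_205s0136g00260 stood at 473, 464 and 331 FPKM in ‘Muscat Hamburg’ and at 19.4, 22.1 and 18.6 FPKM in ‘Victoria’, 21.6-fold higher (log2 4.43 ± 0.48, adjusted p = 3.1e-08). CHS VIT_214s0068g00920 stood at 196, 190 and 96.8 FPKM against 159, 163 and 155 FPKM and was not called (log2 0.03 ± 0.31, adjusted p = 0.961). The first copy thus made up 70.7% to 77.4% of the summed CHS level in ‘Muscat Hamburg’ libraries and 10.7% to 11.9% in ‘Victoria’ libraries.

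Between the F3H copies the direction was opposite. VIT_204s0023g03370 stood at 90.8, 94.1 and 65.7 FPKM in ‘Muscat Hamburg’ and at 6.68, 6.23 and 6.1 FPKM in ‘Victoria’ (log2 3.75 ± 0.46, adjusted p = 2.57e-07). VIT_218s0001g14310 stood at 82.2, 78.7 and 82.8 FPKM in ‘Muscat Hamburg’ and at 243, 244 and 235 FPKM in ‘Victoria’, 2.86-fold lower (log2 -1.52 ± 0.18, adjusted p = 2.14e-07). Here library 3 of ‘Muscat Hamburg’ lay with its partners. The summed F3H level was 165 ± 14.1 FPKM in ‘Muscat Hamburg’ and 247 ± 5.27 FPKM in ‘Victoria’ (SD, n = 3). Neither of the 2 CHI genes was called, with log2 differences of 0.35 and 0.13.

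Of the 17 phenylpropanoid genes, all had a log2 difference above 0, beside 9945 of the 19736 genes tested, and their median was 1.57. Of the 17, 9 were called higher in ‘Muscat Hamburg’, beside 8.37% of all genes. They were 5 of 11 PAL, all 3 C4H and 1 of 3 4CL. Apart from PAL VIT_213s0019g04460 and C4H VIT_206s0004g08150, these calls did not hold with near-identical libraries averaged, which left 1 ‘Victoria’ library. PAL, which removes ammonia from phenylalanine, summed over its copies to 291, 291 and 166 FPKM in ‘Muscat Hamburg’ and to 75, 71.8 and 63.4 FPKM in ‘Victoria’, a ratio of 3.55. The largest PAL contributor was VIT_213s0019g04460 at 95.8, 93.6 and 54.1 FPKM against 13.9, 15.6 and 11.8 FPKM (log2 2.58 ± 0.27, adjusted p = 1.75e-08). VIT_206s0004g02620 followed with 57.1, 54 and 47.4 FPKM against 11.2, 10.9 and 9.41 FPKM (log2 2.37 ± 0.44, adjusted p = 9.97e-05).

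PAL VIT_208s0040g01710 stood at 25, 24.1 and 11.2 FPKM against 6.13, 7.07 and 6.2 FPKM (log2 1.65 ± 0.49, adjusted p = 0.00905). Of the 7 PAL copies in the VIT_216s0039 block, 2 were called (beside 8.37% of all genes), and all 7 had counts that are not whole. VIT_216s0039g01110 stood at 8.32, 8.69 and 5.18 FPKM against 3.63, 1.86 and 2.07 FPKM (log2 1.57 ± 0.54, adjusted p = 0.0246), and VIT_216s0039g01170 at 21.2, 26.1 and 8.09 FPKM against 5.8, 4.11 and 4.95 FPKM (log2 1.90 ± 0.54, adjusted p = 0.00638). In these copies the 2 groups did not overlap and library 3 was the lowest of ‘Muscat Hamburg’. The summed level of the block was 103, 99.5 and 46.8 FPKM in ‘Muscat Hamburg’ and 37.6, 33.8 and 33.4 FPKM in ‘Victoria’, so library 3 came down close to ‘Victoria’ without reaching it. C4H VIT_206s0004g08150, the next enzyme, stood at 78.5, 76.3 and 47 FPKM against 16.4, 18.3 and 15.6 FPKM (log2 2.03 ± 0.25, adjusted p = 3.17e-07). C4H VIT_211s0065g00350 stood at 40.7, 38.7 and 27.5 FPKM against 17, 16.2 and 17.8 FPKM (log2 1.10 ± 0.41, adjusted p = 0.0376). Its call was lost without any one of the first 2 ‘Muscat Hamburg’ or the 3 ‘Victoria’ libraries (adjusted p between 0.0788 and 0.0971). The weakly expressed C4H VIT_211s0078g00290 stood at 2.88, 3.3 and 0.99 FPKM against 0.33, 0.2 and 0.16 FPKM (log2 3.28 ± 0.88, adjusted p = 0.00415). PAL VIT_216s0039g01110 lost its call without any of 4 of the libraries, at an adjusted p between 0.0588 and 0.0954. Among the 4CL genes, which activate the acid, VIT_211s0052g01090 stood at 31.6, 37.6 and 14.6 FPKM against 10.5, 8.11 and 9.71 FPKM (log2 1.62 ± 0.41, adjusted p = 0.00247). By contrast 4CL VIT_216s0050g00390 was level in the varieties, at 81 to 88.6 FPKM and 84.9 to 88.3 FPKM.

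Past F3H, LDOX VIT_202s0025g04720, which makes the anthocyanidins, stood at 228, 224 and 160 FPKM in ‘Muscat Hamburg’ and 26, 27.1 and 30.4 FPKM in ‘Victoria’ (7.34-fold, log2 2.88 ± 0.27, adjusted p = 1.9e-09). The other LDOX gene, VIT_208s0105g00380, stood at 44.7, 46.6 and 48.9 FPKM against 43.1, 39.2 and 41.2 FPKM and was not called (log2 0.24 ± 0.28). DFR VIT_218s0001g12800 stood at 128, 130 and 124 FPKM against 57.3, 52.4 and 52.4 FPKM (log2 1.28 ± 0.21, adjusted p = 2.4e-05). DFR VIT_215s0048g01000 ran the other way at 36.5, 32.9 and 42.9 FPKM against 68.6, 66.4 and 68.8 FPKM, a difference of -0.80 on the log2 scale that missed the fold asked for (adjusted p = 0.0133). So did DFR VIT_215s0048g01010 (log2 -0.61 ± 0.19, adjusted p = 0.011), which missed the fold too. DFR VIT_216s0039g02350 was not called (log2 0.93 ± 0.39, adjusted p = 0.0651). Summed over the 4 copies, DFR was at 175 ± 3.13 FPKM in ‘Muscat Hamburg’ and 134 ± 3.53 FPKM in ‘Victoria’ (SD, n = 3), a ratio of 1.31. Among the 3 flavanol genes 1 was called, towards ‘Muscat Hamburg’, beside 8.37% of all genes. LAR1 and LAR2 were not called (log2 0.39 and -0.58), and ANR was near the limit of detection at 0.95, 1.12 and 1.14 FPKM against 0.27, 0.53 and 0.62 FPKM (log2 1.26 ± 0.48, adjusted p = 0.0426). The ANR call was lost without any one library except ‘Victoria’ library 3.

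Of the 3 flavonol synthase genes 1 was called, and it was higher in ‘Victoria’, beside 7.97% of all genes. FLS4 stood at 2.38, 2.63 and 2.07 FPKM in ‘Muscat Hamburg’ and at 44.7, 45.1 and 41.6 FPKM in ‘Victoria’, 18-fold lower in ‘Muscat Hamburg’ (log2 -4.17 ± 0.78, adjusted p = 1.34e-04). FLS5 stood at 30.6, 33.3 and 35.1 FPKM against 59.2, 54.8 and 53.2 FPKM and passed the adjusted p but not the fold (log2 -0.65 ± 0.20, adjusted p = 0.011). The third gene, FLS VIT_211s0118g00390, was not called (log2 -0.31). Summed over the 3 genes, flavonol synthase was at 172 ± 7.64 FPKM in ‘Victoria’ and 90.9 ± 9.64 FPKM in ‘Muscat Hamburg’ (SD, n = 3), a ratio of 1.89.

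The regulators HY5, HYH and MYBF1 were also higher in ‘Victoria’. HY5 stood at 4.11, 3.55 and 1.21 FPKM in ‘Muscat Hamburg’ and at 15.5, 12.2 and 14.5 FPKM in ‘Victoria’ (log2 -2.21 ± 0.26, adjusted p = 1.36e-07). HYH stood at 6.54, 5.44 and 2.42 FPKM against 14.4, 15.2 and 13 FPKM (log2 -1.57 ± 0.32, adjusted p = 3.16e-04). In both, library 3 of ‘Muscat Hamburg’ was the lowest of all 6. MYBF1 was weakly expressed at 0.26, 0.2 and 0.26 FPKM against 1.4, 0.77 and 0.77 FPKM (log2 -1.99 ± 0.57, adjusted p = 0.00726). It was not called without ‘Victoria’ library 1 (adjusted p = 0.057), with limma on log2(FPKM + 1) or with near-identical libraries averaged. All 6 light-signalling genes had a log2 difference below 0, with a median of -0.97, while 9945 of the 19736 genes tested lay above 0. Of the 6, 2 were called, beside 7.97% of all genes called higher in ‘Victoria’. The light-signalling gene bZIPC22 stood at 38.7, 44.1 and 35.5 FPKM against 76.3, 78.7 and 79.2 FPKM. It passed the adjusted p but not the fold (log2 -0.95 ± 0.25, adjusted p = 0.00339). COP1-2, a homologue of the light-signalling repressor COP1, stood at 5.37, 5.41 and 3.61 FPKM against 8.92, 9.18 and 10 FPKM, and its difference of -0.99 on the log2 scale lay at the edge of the fold asked for (adjusted p = 2.43e-04). It was called in 7 of 16 alternative settings. UVR1 and COP1-1 overlapped between the varieties and lay near 0 (log2 -0.2 and -0.06).

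Of the 12 MYB, bHLH and WDR regulators MYBA1 and MYBA3 were higher in ‘Muscat Hamburg’, MYBF1 in ‘Victoria’, and 9 were not called. Of all genes 8.37% were called towards ‘Muscat Hamburg’ and 7.97% towards ‘Victoria’, so 1 regulator towards ‘Victoria’ is near the share of all genes. MYB5b, known as a general flavonoid activator, stood at 24.3, 22.4 and 17.2 FPKM against 34, 33 and 30.8 FPKM (log2 -0.58 ± 0.11, adjusted p = 8.08e-05), and WDR at 14.6, 17.9 and 18.3 FPKM against 12.7, 13.9 and 12.4 FPKM (log2 0.44 ± 0.14, adjusted p = 0.0149). Both passed the adjusted p with less than a 2-fold difference. The bHLH partner MYC1 was level (log2 0.05 ± 0.15).

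The variety difference was then set beside the same difference at other times, each measured in libraries of its own. At winter E-L 38, where 6.91% of the genes tested were higher in ‘Muscat Hamburg’ and 6.54% in ‘Victoria’, 855 of the 1651 genes (51.8%) were again higher in ‘Muscat Hamburg’, which is 62.7% of the genes called there, and 851 of the 1573 (54.1%) again higher in ‘Victoria’, 66% of those called there. At winter E-L 35 6.42% and 8.25% of the genes tested were called, and 42% and 48.4% of the E-L 36 genes were among them (54.7% and 46.8% of those called at E-L 35). In summer at E-L 36 6.57% and 10.3% were called, which took in 38.8% and 48.1% of the winter genes (49.3% and 37% of the summer ones). At all 3 other times 386 genes were higher in ‘Muscat Hamburg’ and 432 in ‘Victoria’, while 530 and 422 were called at none of them. Calls in opposite directions were fewest against winter E-L 38 (9 and 4 genes) and most against summer E-L 36 (99 and 31 genes).

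The change of the variety difference itself was tested as well. Between E-L 36 and E-L 38 in winter, 166 genes (0.841% of those tested) shifted towards ‘Muscat Hamburg’ at E-L 36 and 158 (0.801%) towards ‘Victoria’. Between E-L 35 and E-L 36 these were 665 (3.37%) and 411 (2.08%), and between winter and summer at E-L 36 they were 1231 (6.24%) and 821 (4.16%). These 3 tests share the 6 winter E-L 36 libraries. With near-identical libraries averaged the counts were 5 and 2, 7 and 7, and 327 and 290.

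Among the 64 flavonoid genes, 16 shifted towards ‘Muscat Hamburg’ from E-L 35 to E-L 36 (25%, beside 3.37% of all genes) and 1 towards ‘Victoria’ (1.56%, beside 2.08% of all genes). Of these 13 were phenylpropanoid genes, and the other 3 were F3'H VIT_209s0002g01090, DFR VIT_215s0048g01000 and LDOX VIT_202s0025g04720. In the PAL block of 7 copies the summed level at E-L 35 was 14.6, 14.1 and 15 FPKM in ‘Muscat Hamburg’ and 84.2, 78.4 and 247 FPKM in ‘Victoria’, 9.38 times as high in ‘Victoria’, while at E-L 36 it was 2.38 times as high in ‘Muscat Hamburg’. Library 3 of ‘Victoria’ stood apart at E-L 35, and without it the ratio there was 5.58 and 15 of the 16 calls held. All 7 copies were called for this change, PAL VIT_216s0039g01110 with 4.54 ± 0.80 on the log2 scale (adjusted p = 5.64e-04). The 4 copies outside the block summed to 147, 150 and 150 FPKM against 53.6, 48.1 and 100 FPKM at E-L 35. That sum was higher in ‘Muscat Hamburg’, but of its copies VIT_200s2849g00010 and VIT_208s0040g01710 were called higher in ‘Victoria’ at E-L 35 (log2 -5.0 ± 0.92 and -1.27 ± 0.48, adjusted p = 1.18e-04 and 0.044), and both shifted like the block. None of the 17 calls held with near-identical libraries averaged, with adjusted p between 0.197 and 0.661 in edgeR, while the changes stayed close in size (4.45 for PAL VIT_216s0039g01110 and -1.83 for FLS5).

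**Figure D3:**
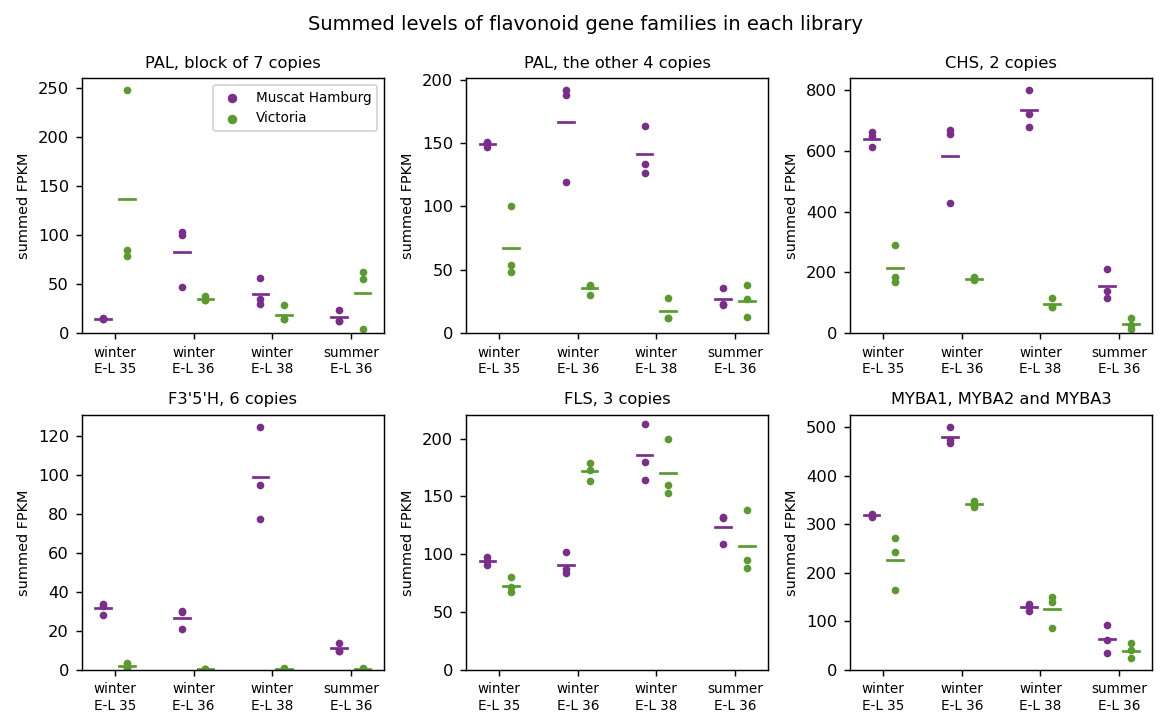
Summed FPKM of a gene family in each library (vertical axis) at the 3 winter stages and at summer E-L 36, with one point per library and a bar at the mean of 3. Purple is ‘Muscat Hamburg’ and green ‘Victoria’. The PAL block is higher in ‘Victoria’ at winter E-L 35 and in ‘Muscat Hamburg’ at E-L 36, F3'5'H is near 0 in ‘Victoria’ throughout, and FLS is higher in ‘Victoria’ at winter E-L 36.

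FLS5 was the gene that shifted towards ‘Victoria’. At E-L 35 it stood at 29.2, 32.2 and 29.8 FPKM in ‘Muscat Hamburg’ and at 10.6, 15 and 15.9 FPKM in ‘Victoria’, and its variety difference moved by -1.89 ± 0.29 on the log2 scale to E-L 36 (adjusted p = 1.59e-04). It was also higher in ‘Muscat Hamburg’ in summer at E-L 36, at 28, 26.3 and 27.8 FPKM against 5.91, 7.88 and 6.58 FPKM, and the difference between the seasons was -2.78 ± 0.30 (adjusted p = 2.19e-07). The level of FLS5 in ‘Muscat Hamburg’ thus lay between 26.3 and 35.1 FPKM in these groups, while that in ‘Victoria’ ranged from 5.91 to 59.2 FPKM.

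Between the seasons 13 flavonoid genes had a variety difference shifted towards ‘Muscat Hamburg’ in winter (20.3%, beside 6.24% of all genes) and 2 towards ‘Victoria’, FLS5 and HY5 (3.12%, beside 4.16% of all genes). The study chose flavonoid biosynthesis genes for a difference between the seasons in these data, so all genes are not a like background here. The 13 were 4 PAL, all 3 C4H and 2 of the 4CL genes, F3H VIT_204s0023g03370 and 3 DFR genes. DFR VIT_215s0048g01000 stood at 1.08, 1.02 and 2.05 FPKM in summer ‘Muscat Hamburg’ berries and at 34.8, 34.5 and 32.5 FPKM in summer ‘Victoria’ berries, and its difference between the seasons was 3.65 ± 0.42 on the log2 scale (adjusted p = 7.64e-07). HY5 stood at 10.5, 21 and 13.4 FPKM in summer ‘Muscat Hamburg’ and at 30.8, 21.1 and 16.8 FPKM in summer ‘Victoria’, where the varieties overlapped (difference between the seasons -1.77 ± 0.35, adjusted p = 6.03e-04). In summer library 1 of ‘Victoria’ stood apart from its partners, by 57.7 and 55.3 times the counting noise, and without it 12 of the 13 and both others held. Library 1 of summer ‘Muscat Hamburg’ stood apart too, by 57.1 and 31.1 times, and all 15 held without it. Of the 13 calls 10 held without ‘Victoria’ library 2 of winter E-L 36, 8 when only the libraries compared were fitted, and 4 with near-identical libraries averaged. Both others held in each of these.

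Among the colour genes UFGT, AOMT and 3AT were called higher in ‘Muscat Hamburg’ at all 3 winter stages and in summer at E-L 36, and so was MYBA1. MYBA3 was called in summer at E-L 36 (log2 1.42 ± 0.40, adjusted p = 0.00647) but not at winter E-L 35 (0.68 ± 0.35) or E-L 38 (0.59 ± 0.36), and MYBA2 at none of the times. A change between times is poorly determined for AOMT, 3AT and MYBA1, whose ‘Victoria’ libraries held almost no counts. For UFGT the change between seasons was 0.96 ± 0.25 on the log2 scale, past the adjusted p (0.00679) and just short of the fold, with 28.4, 29.9 and 29.2 FPKM in summer ‘Muscat Hamburg’ berries and 13, 8.32 and 6.63 FPKM in summer ‘Victoria’ berries. MYBA1 in ‘Muscat Hamburg’ was highest at E-L 36 among the winter stages. It stood at 46.8, 54.1 and 48.4 FPKM at E-L 35 and at 21.2, 21.3 and 20.6 FPKM at E-L 38, and no ‘Victoria’ library of those stages held a count of it.

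At the 3 winter stages and summer E-L 36, FLS4 was low in ‘Muscat Hamburg’ and was highest in ‘Victoria’ at winter E-L 36. In ‘Victoria’ it stood at 14.6, 10.4 and 4.16 FPKM at winter E-L 35, at 9.32, 3.14 and 3.72 FPKM at winter E-L 38 and at 9.94, 0.47 and 0.36 FPKM at summer E-L 36. In ‘Muscat Hamburg’ it was at the floor of 3 counts at winter E-L 35. It stood there at 1.47, 0.94 and 1.12 FPKM at winter E-L 38 and had no count at summer E-L 36. No change between times was called for it (adjusted p between 0.357 and 0.525).

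Genes that change with ripening were set apart by a measure from other libraries: the change from E-L 35 to E-L 38 in summer berries. In both varieties 665 genes fell and 414 rose over that span. These lists hold genes called in the same fit, which shares its estimate of the spread, so all genes are not a fully like background. Of the 665 falling genes 166 (25%) were higher in ‘Muscat Hamburg’ at winter E-L 36 and 62 (9.32%) were higher in ‘Victoria’, beside 8.37% and 7.97% of all genes. Their median log2 difference was 0.48, and 436 of them lay above 0. Of the 414 rising genes 44 (10.6%) were higher in ‘Muscat Hamburg’ and 58 (14%) in ‘Victoria’, with a median of 0. Leaving out library 3 of ‘Muscat Hamburg’ gave 171 and 50 of the falling genes, and averaging near-identical libraries gave 56 and 24 (8.42% and 3.61%, beside 3.24% and 4.31% of all genes). Among the falling genes limma on log2(FPKM + 1) gave a median of 0.15, with 12.5% and 4.81% called beside 4.53% and 5.35% of all genes. At the other times the median of the falling genes was 0.23 at winter E-L 35, 0.01 at winter E-L 38 and -0.4 at summer E-L 36. That of the rising genes was -0.4, 0.07 and -0.14 at these times.

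**Figure D4:**
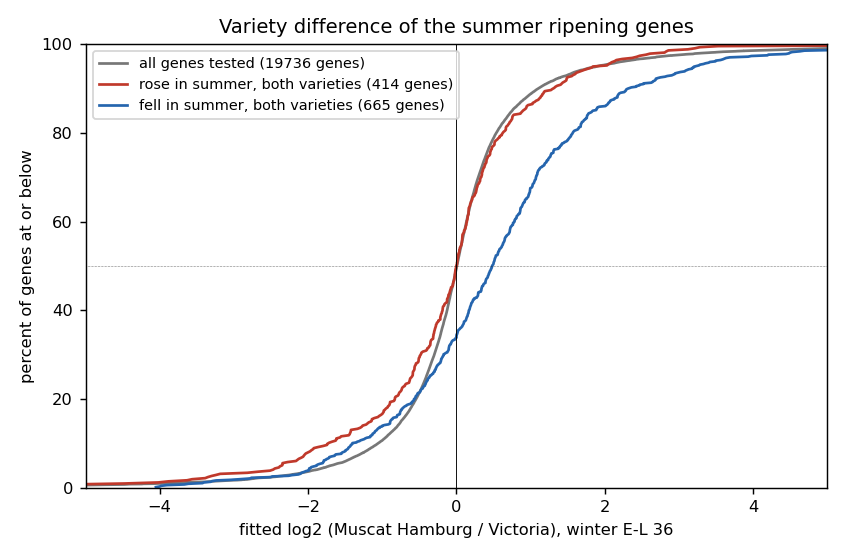
Percent of genes (vertical axis) whose fitted log2 ratio of ‘Muscat Hamburg’ to ‘Victoria’ at winter E-L 36 lies at or below the value on the horizontal axis. The grey line is all 19736 genes tested, the red line the 414 genes that rose and the blue line the 665 that fell with summer ripening in both varieties. The blue line crosses 50 percent at 0.48, and the red and grey lines cross it close to 0.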

How the data were processed

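Per-library tables of the 36 samples were used. As stated by the study's methods and the submitters' processing notes, the authors aligned 50-bp single reads to the grape genome 12X V2 with at most 2 mismatches and computed estimated counts and FPKM (from the longest transcript) per gene. The deposited expected counts hold fractions where reads were shared between genes. They were rounded, and genes missing from a table were taken as 0 (28119 genes listed in any library). The deposited FPKM values were used as levels. Genes passing filterByExpr (19736) were fitted with edgeR 4.0.16 in R 4.3.3 (TMM scaling, quasi-likelihood, 12 groups, all 36 libraries), with no replicate block, and a call needed an adjusted p no higher than 0.05 together with a 2-fold difference, the study's thresholds. The SE is the log2 difference divided by the root of F. A group with no library above 3 counts was taken as at the floor, and folds are then lower bounds against 3 counts per library. Differences of variety differences were contrasts in that fit. An exact permutation test of 3 against 3 libraries cannot go below p = 0.1. Alternatives were DESeq2 1.42.0, limma 3.58.1 on log2(FPKM + 1) and log2(FPKM + 0.1), other scalings and filters, a replicate block, single libraries left out and, added after seeing the data, near-identical libraries averaged and 3 libraries of other groups left out.

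The genes and lists were chosen with earlier results of these data known. The 64 flavonoid genes are those the study followed. Of the other genes, the 2 with the largest called difference in each direction were named, among those above the floor in both varieties, at 5 FPKM or more in the higher one and without overlap. Lists by gene product and cell type marker lists were not run, since the reference gene table holds 0 of the gene identifiers. A series-wide FPKM table was left out because its 36 sample columns match no label. Scripts were tested on simulated data. Same-numbered libraries did not deviate together (correlations from -0.009 to 0.001). Since the ‘Victoria’ libraries of winter E-L 36 differed by little more than counting noise, this could not show whether the numbers pair them.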

Additional observations from a re-analysis of the deposited data

Results flagged for a closer look

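The variety difference of the following flavonoid genes changed between 2 times by a test of the change itself, on the log2 scale (‘Muscat Hamburg’ over ‘Victoria’ at winter E-L 36 minus the same at the other time). Against summer E-L 36 it was 3.59 for PAL VIT_208s0040g01710, 2.92 for PAL VIT_216s0039g01110, 2.38 for PAL VIT_216s0039g01120 and 2.69 for PAL VIT_216s0039g01170. It was 1.93, 1.81 and 3.86 for C4H VIT_206s0004g08150, VIT_211s0065g00350 and VIT_211s0078g00290, and 3.56 and 1.19 for 4CL VIT_211s0052g01090 and VIT_216s0039g02040. Further along the pathway it was 2.73 for F3H VIT_204s0023g03370, 3.65, 1.16 and 1.53 for DFR VIT_215s0048g01000, VIT_215s0048g01010 and VIT_218s0001g12800, -2.78 for FLS5 and -1.77 for HY5.

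Against winter E-L 35 the change was 6.48 for PAL VIT_200s2849g00010 and 2.92 for PAL VIT_208s0040g01710. In the PAL block it was 3.77 for VIT_216s0039g01100, 4.54 for VIT_216s0039g01110, 3.99 for VIT_216s0039g01120, 4.85 for VIT_216s0039g01130, 4.14 for VIT_216s0039g01170 and 5.2 for VIT_216s0039g01320. PAL VIT_216s0039g01300 had no count in the ‘Muscat Hamburg’ libraries of winter E-L 35, so only its adjusted p is given (0.00109 in edgeR). The change was 1.51, 3.91 and 6.43 for C4H VIT_206s0004g08150, VIT_211s0065g00350 and VIT_211s0078g00290, 3.16 for 4CL VIT_211s0052g01090 and 1.53 for F3'H VIT_209s0002g01090. It was 1.53 for DFR VIT_215s0048g01000, 1.52 for LDOX VIT_202s0025g04720 and -1.89 for FLS5. Most of these genes have copies that share reads, so single copies are less certain than their sums.

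Against winter E-L 38 the change was -1.51 for C4H VIT_206s0004g08150 and 1.43 for LDOX VIT_208s0105g00380. The LDOX call was lost without any one of the 6 libraries of winter E-L 36, and both calls were lost with near-identical libraries averaged (adjusted p = 0.593 and 0.738 in edgeR).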

How the results depend on the processing

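Counts of genes are given as ‘Muscat Hamburg’ then ‘Victoria’ higher at winter E-L 36 (1651 and 1573), and then as shifts towards each against summer (1231 and 821), E-L 35 (665 and 411) and E-L 38 (166 and 158). With at least 10 counts in every library compared the counts were 872 and 866, with 812 towards ‘Muscat Hamburg’ against summer and 254 towards ‘Victoria’ against E-L 35, and fewer genes were tested. With limma on log2(FPKM + 1) 894 genes were higher in ‘Muscat Hamburg’ and 542 shifted towards ‘Victoria’ against summer. Fitting only the libraries compared gave 532 towards ‘Victoria’ against summer and 271 towards ‘Muscat Hamburg’ against E-L 38, and DESeq2 gave 252 for the latter. With near-identical libraries averaged the counts were 673 and 894, 327 and 290, 7 and 7, and 5 and 2, with fewer libraries. Without the fold condition they were 3493 and 3437, with 1879 towards ‘Victoria’ against summer, 790 towards it against E-L 35, and 341 and 329 against E-L 38. With an adjusted p no higher than 0.01 the shifts were 725 and 535, 303 and 194, and 48 and 51. Leaving out 1 library gave 1487 to 1632 and 1484 to 1523 genes at winter E-L 36, and against E-L 38 94 to 177 and 97 to 184 (94, 100 and 94 without ‘Victoria’ library 1, 2 and 3, and in the other direction 101 without ‘Muscat Hamburg’ library 2 and 105 and 97 without ‘Victoria’ library 2 and 3). Where no cause is given, the cause was not tested. Whether the replicate numbers pair the libraries could not be told, and a fit with the replicate block gave 1626 and 1578, 1197 and 816, 624 and 404, and 164 and 158 genes.

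Of the flavonoid genes not called, 4 changed sign around 0. F3'H VIT_203s0063g01690 ranged from -0.17 to 0.06 when 1 library was left out. MYC1 was -0.05 with limma at either pseudocount, -0.01 with libraries averaged, and from -0.04 to 0.19 without 1 library. CHS VIT_214s0068g00920 was -0.05 with limma at either pseudocount, -0.08 with libraries averaged, and from -0.1 to 0.25 without 1 library. 4CL VIT_216s0050g00390 was -0.04 with library size alone, -0.03 and -0.04 with limma, and from -0.03 to 0.05 without 1 library. No flavonoid gene called at winter E-L 36 changed sign under the alternatives run. Depth limits what can be said of genes at or under 3 counts in a variety, whose folds are bounds.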
